A study of Mus musculus with 32 samples.

Results

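Id genes and the BMP pathway were followed in ribosome footprints of neural stem cells (NSCs) treated with interferon-β (IFN-β). The 10 genes were taken by symbol from 23035 genes in the footprint tables: the ligand Bmp4, the receptors Bmpr1a and Bmpr2, the signal transducer Smad1, the inhibitory Smad6 and Smad7, and the targets Id1, Id2, Id3 and Id4. They were chosen as a pathway, by name and not by a threshold on a value, with earlier results of these data known. Ribo-Seq reads the short mRNA fragments that ribosomes protect from RNase, so a footprint count in a coding sequence (CDS) stands for ribosomes on that mRNA. NSCs came from the ventricular-subventricular zone of C57BL/6 male mice of 8 to 12 weeks and were grown ex vivo in medium with EGF and FGF, which differs from the niche that they left. All cultures received cycloheximide, which holds ribosomes in place, just before lysis. The 4 groups were vehicle (BSA in PBS) for 2 h, IFN-β for 2 h, vehicle for 14 h and IFN-β for 14 h. Each group held 4 replicates, with the numbers 2, 3, 5 and 6 for the short exposure and 1 to 4 for the long one, and each replicate gave a footprint and a total RNA library.

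BMP ligands bind a complex of type I receptors, such as BMPR1A, and type II receptors, such as BMPR2. The type I receptor then phosphorylates SMAD1, SMAD5 and SMAD9, which enter the nucleus with SMAD4 and switch on target genes, among them the Id genes and the feedback inhibitors Smad6 and Smad7. ID proteins hold the helix-loop-helix domain without the basic stretch that contacts DNA, and so keep E proteins and proneural factors off their sites. In the adult subventricular zone, BMP signals and ID proteins are known for their part in keeping stem cells undifferentiated and in the choice between glial and neuronal fates.

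Footprint libraries held 2956297 to 10505108 counts and total RNA libraries 1370008 to 7877753. Values per library are CPM, counts scaled to a common depth with the TMM factors of edgeR, and log2 fold changes are IFN-β over vehicle. Their p-values come from the quasi-likelihood test of edgeR, adjusted after Benjamini and Hochberg over all genes tested, and 0.05 was the threshold for a call. Interferon-stimulated genes checked the treatment, and 12 of 12 were called higher at either time. The 8 neural stem cell markers summed to 10547 to 17928 CPM, whereas the 8 microglia markers summed to 0.560 to 26.6 CPM, with Aif1, C1qa and Cx3cr1 listed at 0 in every library. Footprint libraries of the same replicate number deviated together at both times, and a fit with the replicate number as a block, called paired below, is given beside the unpaired fit where it changes the call of a member or the count of a list. Replicate 3 at 2 h stood apart in both of its libraries, so values without it are also given for Bmpr1a, Smad1, Id1, Id2 and Id4. The lists at 2 h are given with it only.

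The receptor Bmpr1a and the transducer Smad1 rose after 2 h of IFN-β while Id1 fell. At 14 h Bmpr1a and Smad1 were no longer called, and Id1 was still called lower, close to the threshold. Of the 7 genes with enough counts at 2 h, 2 were called higher, against 5.25% of all genes tested, and 1 was called lower, against 2.01%. All 4 IFN-β libraries lay above all vehicle libraries for Smad1 and Bmpr1a, as in 7.68% of genes tested, and below them for Id1, as in 5.3%. In the paired fit 3 genes were called higher, against 15.9% of all genes, and 2 lower, Id1 and Id4, against 13.4%. Of these, Id4 reached the count filter through its vehicle libraries. At 14 h, 6 genes were tested and none was called higher, against 26.2% of all genes, while Id1 was the 1 gene called lower, against 26.3%. The paired fit at 14 h called 3 genes lower, against 31% of all genes, and none higher, against 31.8%. No gene's groups were apart at 14 h, where this was so for 46.3% of genes tested. The median log2 fold change of the tested members was 0.05 at 2 h and -0.07 at 14 h, beside -0.02 and 0.00 over all genes.

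**Figure D1:**
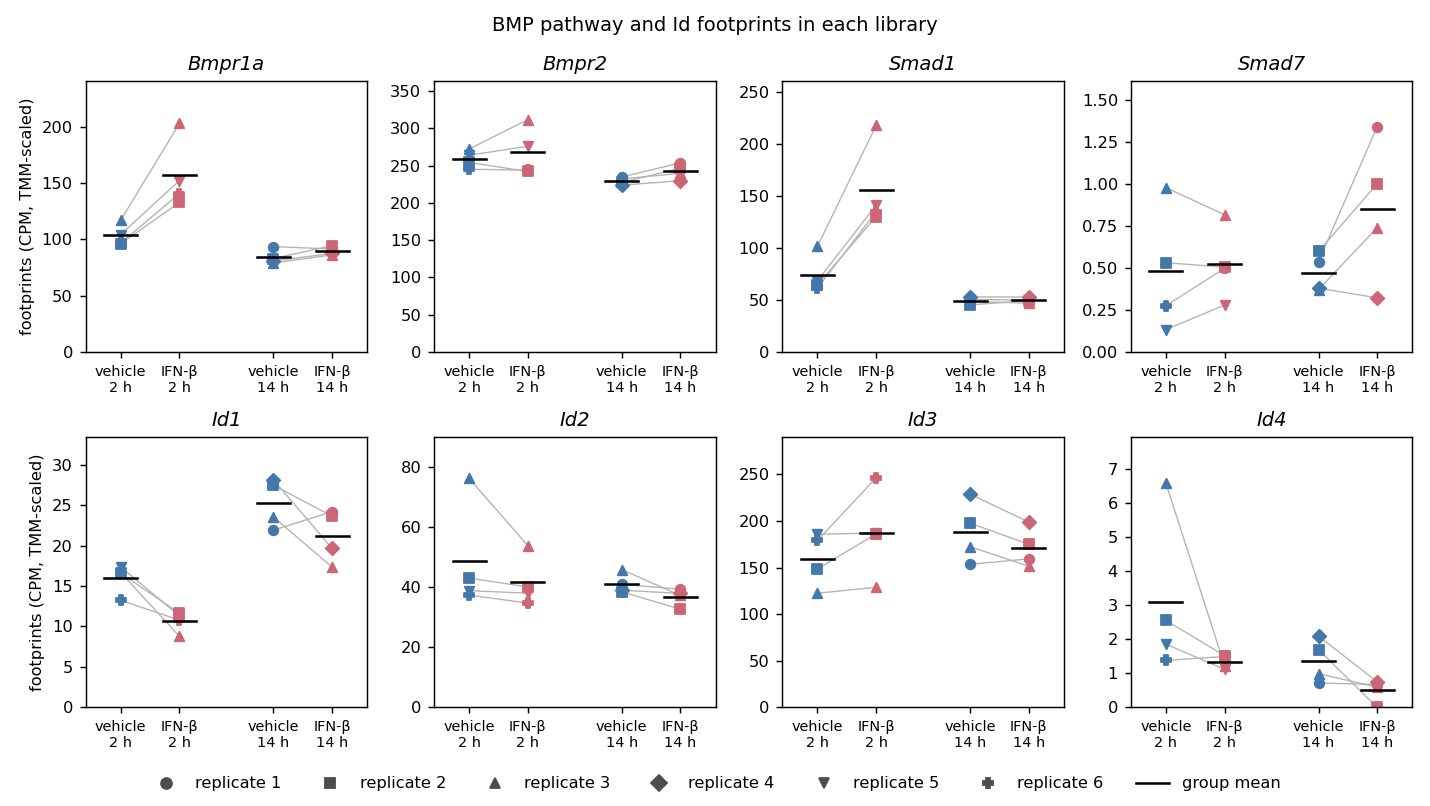
Footprints in CPM (y axes, from 0) of 8 genes in every library, in the 4 groups of treatment and time. Grey lines join libraries of the same replicate number, symbols give that number and black bars the group means. At 2 h every line of Smad1 and Bmpr1a rises and every line of Id1 falls. At 14 h Smad1 lies between 45.3 and 52.9 CPM in all 8 libraries.

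The ligand Bmp4 (ENSMUSG00000021835; mm10 chr14:46383520-46390669, minus strand), a BMP of the developing and adult brain, had 1 footprint count over 16 libraries, in IFN-β replicate 6 at 2 h. A count of 0 in the 4 vehicle libraries of 2 h allows up to 0.0960 CPM, counting error only, so a fall or a small change of this ligand was not detectable at this depth. Among 13 other BMP ligands, Bmp7 alone had enough counts to be tested. Its footprints averaged 53.9 CPM with vehicle and 51.0 CPM with IFN-β at 2 h (log2 fold change -0.07, adjusted p = 0.889) and 72.8 and 52.6 CPM at 14 h, where it fell by 0.48 on the log2 scale (adjusted p = 0.00216). Bmp2, a ligand of the same subfamily as Bmp4, was too sparse for the test, with 0.209 ± 0.144 CPM (SD, n = 4) in vehicle and 1.39 ± 0.558 CPM in IFN-β at 2 h.

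Bmpr1a (ENSMUSG00000021796; chr14:34410734-34503341, minus strand) encodes the type I receptor ALK3. At 2 h its footprints were 96.0, 117, 104 and 96.7 CPM with vehicle in replicates 2, 3, 5 and 6, and 133, 203, 152 and 141 CPM with IFN-β. The lowest IFN-β library lay above the highest vehicle library, and replicate 3 was the highest of each group. Bmpr1a rose 1.52-fold (95% interval 1.22 to 1.89; log2 fold change 0.60, adjusted p = 0.0309). The call was lost on leaving out vehicle replicate 2, 5 or 6 or IFN-β replicate 5 or 6 (adjusted p = 0.0543 to 0.108), and without both libraries of replicate 3 the log2 fold change was 0.52 (adjusted p = 4.7e-04). In the paired fit it was 0.59 (adjusted p = 2.1e-09), and with each replicate left out of that fit it stayed between 0.52 and 0.63.

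At 14 h Bmpr1a footprints were 93.5, 82.8, 79.0 and 80.9 CPM with vehicle in replicates 1 to 4, and 91.4, 94.4, 86.1 and 87.4 CPM with IFN-β. The groups overlapped, and replicate 1 was higher with vehicle while the other 3 were higher with IFN-β. Its log2 fold change was 0.09 (95% interval -0.05 to 0.23, adjusted p = 0.266). The paired fit gave 0.10 (95% interval 0.003 to 0.21, adjusted p = 0.0682), and over the alternatives the adjusted p went down to 0.0185. The response at 14 h was lower than that at 2 h by an interaction of time and treatment over the 16 footprint libraries (-0.50 on the log2 scale, 95% interval -0.84 to -0.17, adjusted p = 0.0240). This difference missed the threshold without vehicle replicate 1 of 14 h (adjusted p = 0.0538) or IFN-β replicate 3 of 14 h (adjusted p = 0.0511). Numbers 2 and 3 occur at both exposures, the labels do not say whether they mark the same cultures, and the part of the cultures in this difference was not tested.

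Bmpr2 (ENSMUSG00000067336; chr1:59763400-59879014, plus strand), encodes the type II receptor. Its footprints at 2 h were 254, 272, 264 and 245 CPM with vehicle and 242, 312, 276 and 244 CPM with IFN-β. At 14 h they were 235, 227, 232 and 224 CPM with vehicle and 254, 246, 240 and 230 CPM with IFN-β. The groups overlapped at both times, although each replicate at 14 h was higher with IFN-β. Bmpr2 had a log2 fold change of 0.05 at 2 h (95% interval -0.17 to 0.28, adjusted p = 0.881) and 0.07 at 14 h (95% interval -0.04 to 0.18, adjusted p = 0.263), and the difference between the times was 0.03 (95% interval -0.20 to 0.25).

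Smad1 (ENSMUSG00000031681; chr8:79338395-79399518, minus strand), the transducer that the BMP receptors phosphorylate, showed the largest called response of the 10 genes in the unpaired fit. With vehicle its footprints at 2 h were 64.7, 102, 68.5 and 61.6 CPM in replicates 2, 3, 5 and 6, and with IFN-β 130, 218, 141 and 135 CPM. Every IFN-β library lay above every vehicle library, and the ratio within a replicate was 2.02, 2.14, 2.06 and 2.19. Smad1 rose 2.11-fold (95% interval 1.51 to 2.94; log2 fold change 1.08, adjusted p = 0.0138). Without vehicle replicate 5 or 6 the adjusted p was 0.0550 or 0.0540. The paired fit gave 1.07 (95% interval 0.96 to 1.18, adjusted p = 3.3e-15), and leaving out both libraries of replicate 3 gave 1.06.

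At 14 h Smad1 footprints were 50.6, 45.3, 48.7 and 52.9 CPM with vehicle and 49.7, 49.3, 46.8 and 52.8 CPM with IFN-β. The groups lay over each other. Smad1 had a log2 fold change of 0.00 (95% interval -0.14 to 0.15, adjusted p = 0.959), an interval that leaves out a change of the size seen at 2 h. The interaction of time and treatment was -1.06 on the log2 scale (95% interval -1.56 to -0.57, adjusted p = 0.00283), and it passed with any 1 library left out (adjusted p up to 0.00774). Of 7 members tested for this interaction 2 were called lower, Smad1 and Bmpr1a, against 15.5% of all genes, and none higher, against 15.4%. The paired fit called 3, against 27.5%, since it added Id3.

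Smad1 and Bmpr1a moved together, so the stretches of their promoters that lie outside annotated exons are shown, read from RefSeq for GRCm38.p6, the build of mm10. The Smad1 stretch is chr8:79399519-79399678 and the Bmpr1a stretch chr14:34502688-34502796, both on the minus strand. The former lies next to the 5′ end of the gene as given above, and the latter lies inside the bounds of Bmpr1a but between its exons, upstream of a start that RefSeq gives. Capitals mark GGCGCC, a GC-rich element that SMADs are known to bind, which the Bmpr1a stretch holds once and the Smad1 stretch does not hold.
Smad1: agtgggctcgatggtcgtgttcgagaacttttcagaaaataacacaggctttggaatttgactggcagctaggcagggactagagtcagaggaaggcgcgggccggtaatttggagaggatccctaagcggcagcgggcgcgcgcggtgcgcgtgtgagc
Bmpr1a: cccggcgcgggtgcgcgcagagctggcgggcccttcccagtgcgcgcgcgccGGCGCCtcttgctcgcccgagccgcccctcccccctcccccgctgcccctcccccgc

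Both strands of 300-base promoters were searched for 3 motifs, and 8 of the 10 members were in the RefSeq table (Id1 and Smad7 were not used here). The core of the interferon response element, GAAA and GAAA with 2 bases of any kind between them, was in 3.44% of 32851 promoters and in 0 of the 8. GGCGCC was in 11.9% of all promoters and in 4 of the 8, namely Id2, Id4, Bmpr1a and Bmpr2. CAGAC, the SMAD box, was in 49.6% of all promoters and in 1 of the 8, Id3. The Smad1 promoter held none of the 3 motifs. These are letter matches and not measured sites.

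The inhibitory members were near the limit of detection. Smad6 (ENSMUSG00000036867; chr9:63953076-64022059, minus strand), an inhibitor of SMAD1 signals, had 6 footprint counts over the 16 libraries, at most 2 in any. Smad7 (ENSMUSG00000025880; chr18:75367529-75395935, plus strand), which blocks receptors of the BMP and TGF-β branches alike, had 1 to 7 counts per library. Its footprints averaged 0.480 CPM with vehicle and 0.525 CPM with IFN-β at 2 h, and 0.472 and 0.852 CPM at 14 h. Vehicle and IFN-β libraries overlapped at both times. Neither gene had enough counts for the test.

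**Figure D2:**
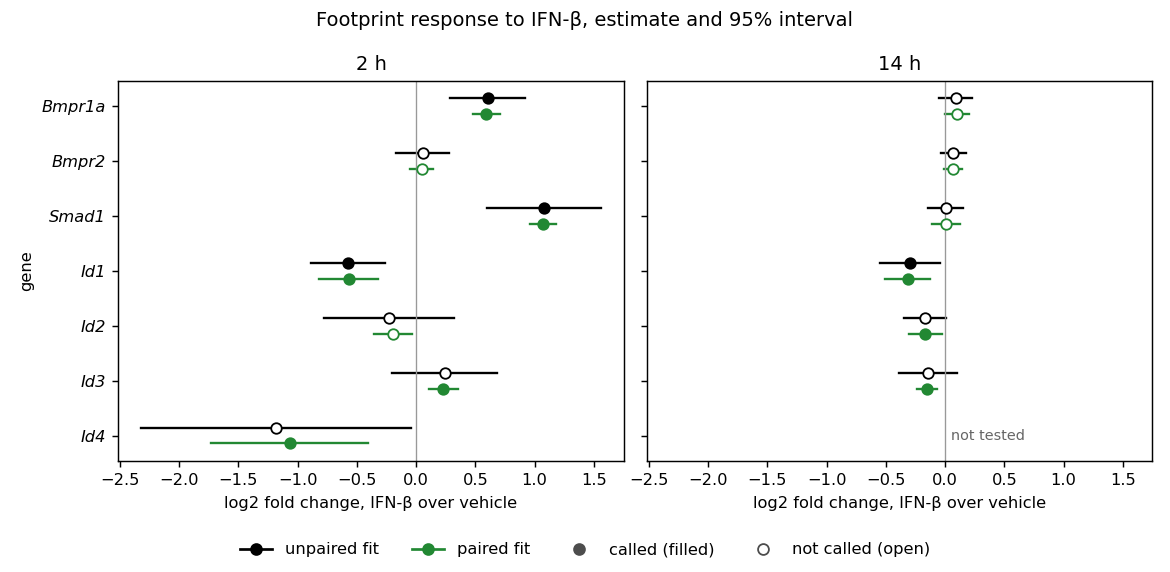
Log2 fold changes in footprints, IFN-β over vehicle (x axes), of the 7 genes tested at 2 h and the 6 tested at 14 h. Points are estimates, bars 95% intervals, black is the unpaired and green the paired fit, and filled points were called at an adjusted p under 0.05. Smad1 (1.08) and Bmpr1a (0.60) stand to the right at 2 h and near 0 at 14 h, whereas Id1 lies to the left at both times.

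Id1 (ENSMUSG00000042745; chr2:152736251-152737410, plus strand), the classical direct target of BMP and SMAD1, fell at both times. With vehicle its footprints at 2 h were 16.6, 16.6, 17.4 and 13.2 CPM in replicates 2, 3, 5 and 6, and with IFN-β 11.6, 8.79, 11.3 and 10.8 CPM. The highest IFN-β library lay below the lowest vehicle library. Id1 fell by 32.9% (log2 fold change -0.58, 95% interval -0.89 to -0.26, adjusted p = 0.0359). With 1 library left out the estimate stayed between -0.66 and -0.50, but the adjusted p passed 0.05 in 7 of 8 cases (0.0278 without vehicle replicate 6, and 0.0582 to 0.113 in the others). The paired fit gave -0.57 (adjusted p = 5.6e-04) and called Id1 with any replicate left out, and without both libraries of replicate 3 the unpaired value was -0.48 (adjusted p = 0.0427).

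At 14 h Id1 footprints were 21.9, 27.4, 23.5 and 28.1 CPM with vehicle in replicates 1 to 4, and 24.2, 23.6, 17.3 and 19.6 CPM with IFN-β. The groups overlapped, since replicate 1 was higher with IFN-β and the other 3 were lower. Id1 fell by 18.7% (log2 fold change -0.30, 95% interval -0.55 to -0.05, adjusted p = 0.0456), close to the threshold. The call was lost without vehicle replicate 2 (adjusted p = 0.142), 3 (0.0584) or 4 (0.141) and without IFN-β replicate 3 (0.159) or 4 (0.135), and in DESeq2 (0.0711). The paired fit gave -0.32 (adjusted p = 0.00476), and without replicate 4 it gave -0.21 (adjusted p = 0.101). The responses at 14 h and 2 h differed by 0.30 on the log2 scale (95% interval -0.09 to 0.70, adjusted p = 0.233).

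Id2 (ENSMUSG00000020644; chr12:25093799-25097140, minus strand), which is also expressed along the neuronal lineage, had footprints at 2 h of 43.0, 76.1, 38.8 and 37.3 CPM with vehicle and 40.1, 53.8, 38.0 and 34.7 CPM with IFN-β. Replicate 3 was far above the others in each group, and each replicate was lower with IFN-β, although the groups overlapped. The log2 fold change was -0.23 (95% interval -0.78 to 0.32, adjusted p = 0.754), and -0.08 without both libraries of replicate 3. At 14 h the values were 40.9, 38.4, 45.8 and 39.0 CPM with vehicle and 39.3, 32.7, 37.2 and 37.9 CPM with IFN-β, again lower in each replicate and with groups that overlapped. The log2 fold change of -0.17 was not called in the unpaired fit (adjusted p = 0.0983) and was called in the paired fit (adjusted p = 0.0327), except without replicate 2 (0.148) or 3 (0.212).

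Id3 (ENSMUSG00000007872; chr4:136143497-136145755, plus strand) carried most footprints of the family. At 2 h it had 148, 122, 186 and 179 CPM with vehicle and 186, 129, 187 and 246 CPM with IFN-β. Replicate 3 was the lowest of each group, all 4 replicates were higher with IFN-β, and the groups overlapped. The log2 fold change was 0.24 (95% interval -0.21 to 0.68, adjusted p = 0.665), and the paired fit called it higher (0.23, adjusted p = 0.00443), except without replicate 6 (0.15, adjusted p = 0.0923).

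At 14 h Id3 had 153, 198, 172 and 229 CPM with vehicle and 159, 175, 151 and 199 CPM with IFN-β. Replicate 1 was higher with IFN-β and the other 3 were lower, and the groups overlapped. Id3 had a log2 fold change of -0.14 (95% interval -0.39 to 0.10, adjusted p = 0.314), and the paired fit called it lower (-0.15, adjusted p = 0.00297), also with any replicate left out (adjusted p up to 0.0479). The interaction of time and treatment for Id3 was -0.37 (adjusted p = 0.269) and was called in the paired fit (adjusted p = 3.7e-04), in which the response was positive at 2 h and negative at 14 h.

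Id4 (ENSMUSG00000021379; chr13:48261228-48266026, plus strand), the member known to hold adult NSCs in quiescence, was sparse. It had 24, 47, 14 and 10 footprint counts with vehicle at 2 h (2.55, 6.58, 1.85 and 1.38 CPM) and 12, 6, 8 and 9 with IFN-β (1.52, 1.23, 1.12 and 1.49 CPM). Vehicle replicate 3 was far above the others, and replicate 6 was not lower with IFN-β in CPM. Id4 had a log2 fold change of -1.18 (95% interval -2.32 to -0.04, adjusted p = 0.265). The paired fit called it lower (-1.07, adjusted p = 0.0127), but without replicate 3 the paired value was -0.51 (adjusted p = 0.316). Id4 entered the test through vehicle, where all libraries reached 10 counts, while with IFN-β replicate 2 alone did. Its call is therefore not independent of the filter. At 14 h Id4 had 51 counts with vehicle and 13 with IFN-β over 4 libraries each, too few for the test. Of the 486 CDS bases of Id4, 217 lie under exons of genes on the opposite strand (A330033J07Rik and Gm49291), and the strand setting of the counting was not given in the sources used here, so its counts are uncertain.

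Summed markers of some other cell types differed with the treatment at 14 h, through few genes. The 7 astrocyte markers ranged in sum from 920 to 1089 CPM in vehicle and from 1339 to 1588 CPM in IFN-β libraries, and the 8 oligodendrocyte lineage markers from 283 to 306 and from 417 to 462 CPM. The 5 ependymal markers summed to 24.2 to 32.0 and 53.2 to 68.2 CPM, with Tmem212 at 0 in every library, and the microglia markers to 5.94 to 8.61 and 21.0 to 26.6 CPM. Of the 5 astrocyte markers tested at 14 h, 2 were called higher and 1 lower, with a median of -0.05, and Aldh1l1 alone went from a mean of 510 to 999 CPM. Of the 4 oligodendrocyte markers tested, 1 was called higher, Cnp (107 and 248 CPM), with a median of -0.05, and the paired fit also called Pdgfra lower. Of 3 ependymal markers tested 2 were called higher, and of the microglia markers the 1 tested. Over all genes at 14 h 26.2% were called higher and 26.3% lower. At 2 h the sums of these lists overlapped between vehicle and IFN-β, and none of their members was called in the unpaired fit. The paired fit at 2 h called 2 astrocyte markers higher and 1 lower, 3 of 4 oligodendrocyte markers lower and 1 of 3 ependymal markers, Foxj1, lower. Gfap, an intermediate filament of astrocytes and NSCs, had means of 30.8 and 162 CPM at 2 h (log2 fold change 2.40, adjusted p = 0.432, and 2.82 with adjusted p = 2.1e-11 in the paired fit). Of the 8 neural stem cell markers, all tested, 2 were called lower and none higher at 14 h (3 and 1 in the paired fit). At 2 h none of the 8 was called in the unpaired fit, and the paired fit called 3 lower and 1 higher. The part of all these markers in the changes of the Id genes was not tested. In bulk samples fewer cells of a type and less RNA per cell cannot be told apart.

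Levels of different genes were compared as CPM per kilobase of CDS. Id3 has the shortest CDS of the members (360 bases), and the part of CDS length and of cycloheximide in these levels was not tested. Id3 stood first in every group, with means of 441 ± 81.1 (SD, n = 4) in vehicle and 520 ± 133 in IFN-β at 2 h, and 522 ± 90.5 and 475 ± 58.0 at 14 h. With vehicle at 2 h the order below it was Id2 (93.0), Bmpr2 (83.0), Bmpr1a (63.5), Smad1 (51.8), Id1 (29.1), Id4 (6.36) and Smad7 (0.370), with Smad6 and Bmp4 last. Among these neighbours the ranges overlapped for Id2 and Bmpr2 and for Bmpr1a and Smad1, and for Smad6 and Bmp4. With IFN-β at 2 h Smad1 came next to Id3 (109), followed by Bmpr1a (96.5), with ranges that overlapped each other and that of Bmpr2 (86.1). At 14 h Id1 (46.0 with vehicle and 38.6 with IFN-β) stood above Smad1 (34.5 and 34.7), with ranges that overlapped with IFN-β only.

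**Figure D3:**
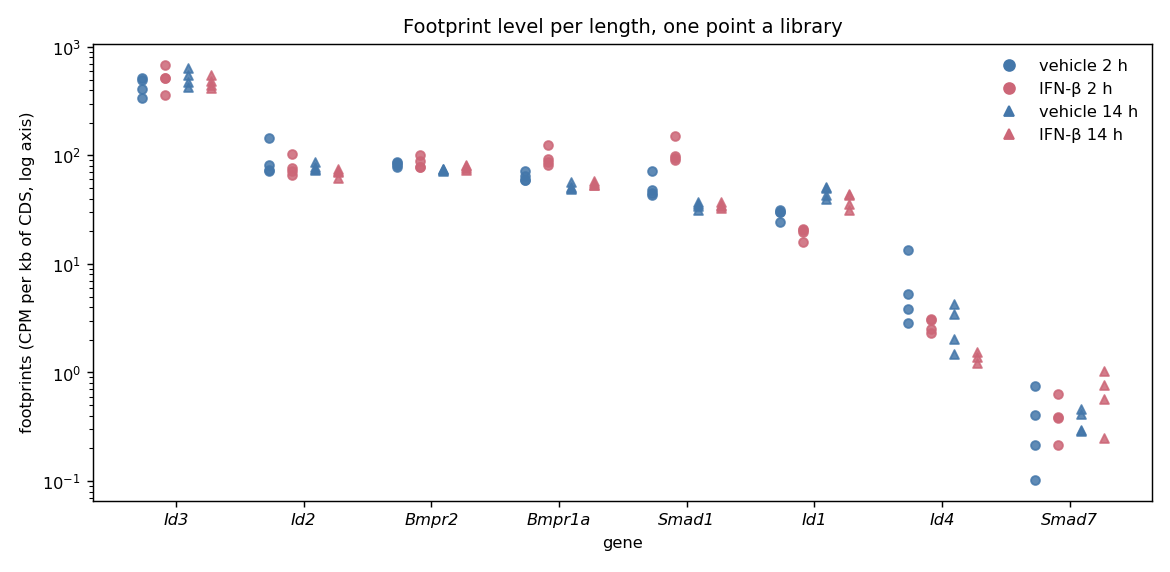
Footprint level per length, in CPM per kilobase of CDS on a log axis, of the 8 members with counts in most libraries; each point is a library, circles are 2 h, triangles 14 h, blue is vehicle and red IFN-β. The 1 library with no Id4 count is not drawn. Id3 lies above the other 7 genes in every library, and Smad1 and Bmpr1a with IFN-β at 2 h reach the level of Id2 and Bmpr2.

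ID proteins act by binding E proteins, which Tcf3, Tcf4 and Tcf12 encode. The 4 Id genes summed to 570 ± 48.2 CPM per kilobase with vehicle and 621 ± 120 with IFN-β at 2 h, and Id3 made up 64.3% to 88.5% of that sum. The 3 E protein genes summed to 505 to 544 CPM per kilobase in vehicle libraries at 2 h and to 455 to 468 in IFN-β libraries. These groups did not overlap, and no test was run on the sum. Of single genes tested at 2 h, 5.3% had all IFN-β libraries below all vehicle libraries. At 14 h vehicle libraries had E protein sums of 533 to 550, and IFN-β libraries 532 to 559. Divided by the E protein sum, the Id sum gave a ratio of 1.10 in vehicle libraries of 2 h (range 0.972 to 1.21) and 1.35 after IFN-β (range 1.04 to 1.65). At 14 h the ratios were 1.20 (1.02 to 1.39) and 1.08 (0.985 to 1.23). The ranges overlapped at both times, although at 2 h the ratio was higher with IFN-β within each of the 4 replicates, and at 14 h within 1 of 4, with no test run. Footprints are not protein amounts.

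Among 14 basic helix-loop-helix (bHLH) partners and relatives of the Id genes, 10 were tested at 2 h. Of these, 2 were called lower and none higher, where 2.01% and 5.25% of all genes were. The paired fit called 9 of them lower and none higher, where 13.4% and 15.9% of all genes were. The median of the 10 was -0.57 on the log2 scale, beside -0.02 over all genes. The 2 were Olig2, a bHLH factor of oligodendrocyte progenitors and transit-amplifying cells, which fell from a mean of 725 CPM to 367 CPM (log2 fold change -0.98, adjusted p = 3.9e-04), and its neighbour Olig1, from 1675 to 1145 CPM (-0.55, adjusted p = 0.0115). At 14 h their log2 fold changes were 0.11 (adjusted p = 0.178) and 0.15 (adjusted p = 0.247), and the paired fit called both higher (adjusted p = 0.00972 and 0.00211). The interaction of time and treatment was called for both (adjusted p = 1.2e-05 and 0.00333).

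At 14 h 9 genes of this list were tested, and their median was 0.15 beside 0.00 over all genes. Of these, 2 were called higher and 1 lower, where 26.2% and 26.3% of all genes were. The paired fit called 5 higher and 1 lower, where 31.8% and 31% of all genes were. Tcf3, which encodes the E proteins E12 and E47, fell by 0.33 (adjusted p = 6.5e-04). Hes1 and Hes6, bHLH-Orange genes, were higher at 14 h (0.23 and 0.27, adjusted p = 0.0126 and 0.0314), while their values at 2 h were -0.54 and -0.69 (adjusted p = 0.121 and 0.0644), called lower in the paired fit (adjusted p = 1.1e-06 and 1.1e-08). In the interaction of time and treatment, 6 of 10 genes of the list were called with a higher response at 14 h and none with a lower one. Over all genes 15.4% and 15.5% were. The paired fit called 7 of the list higher and none lower, where 3499 and 3445 of 12508 genes were.

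Of 8 other receptors and co-receptors tested at 2 h none was called in the unpaired fit, while the paired fit called Acvr1 higher and Bmpr1b, Rgma and Lrp2 lower. The paired fit at 2 h called 15.9% of all genes higher and 13.4% lower. Of 9 tested at 14 h 3 were lower and none higher, where 26.3% and 26.2% of all genes were, with a median of -0.12. They were Acvr2a, a type II receptor (-0.32, adjusted p = 0.00929), Bmpr1b, the other BMPR1 receptor (-0.28, adjusted p = 0.0405), and Neo1, which binds the RGM co-receptors (-0.14, adjusted p = 0.0482). The paired fit at 14 h called 4 lower, with Acvr1 added, and Rgma higher, where 31% and 31.8% of all genes were. Smad4, the partner shared with the TGF-β branch, had means of 111 and 111 CPM at 2 h and 100.2 and 93.5 CPM at 14 h (log2 fold change 0.01 and -0.11, adjusted p = 0.986 and 0.0884), and the paired fit called it lower at 14 h (adjusted p = 0.0445). Of 8 other SMADs and nuclear partners tested, none was called at 2 h (Hdac1 higher and Zfp423 lower in the paired fit), and at 14 h 3 were higher and 1 was lower (4 and 2 in the paired fit). Over all genes at 14 h 26.2% and 26.3% were, and 31.8% and 31% in the paired fit. The gene lower in both fits was Smad5, which carries the same signal as Smad1 (-0.23, adjusted p = 0.00895), whereas the zinc finger cofactor Zfp423 rose by 0.70 (adjusted p = 4.6e-04) and the acetyltransferases Crebbp and Ep300 by 0.22 and 0.16 (adjusted p = 0.0337 and 0.0296).

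Of 9 extracellular and membrane antagonists tested at 2 h, 1 was called (2 higher and 1 lower in the paired fit), the pseudoreceptor Bambi, which rose from a mean of 6.66 to 10.2 CPM (log2 fold change 0.61, adjusted p = 0.0448) and then was lower at 14 h, 7.99 against 5.49 CPM (-0.57, adjusted p = 0.0145). Its interaction of time and treatment was -1.16 (adjusted p = 0.00151). Over all genes at 2 h 5.25% were called higher, and 15.9% higher and 13.4% lower in the paired fit. Of 9 tested at 14 h, 2 were higher and 3 lower, near the 26.2% and 26.3% of all genes. The higher ones were Fstl1 (0.81, adjusted p = 5.5e-04) and Nbl1 (0.61, adjusted p = 9.2e-04), both secreted BMP binders. The other 2 lower ones were the chordin-like Chrdl1 (-1.05, adjusted p = 7.7e-04) and follistatin, Fst (-0.45, adjusted p = 0.0387). Noggin, Nog, averaged 0.416 to 0.784 CPM over the groups and was not tested.

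Of 14 intracellular regulators listed as brakes on the pathway, all tested, 1 was higher at 2 h, Smurf1, the ubiquitin ligase that targets SMAD1 and BMP receptors for degradation (45.6 and 62.9 CPM, log2 fold change 0.46, adjusted p = 0.0396), and the paired fit also called Tob2 higher. Over all genes at 2 h 5.25% were called higher, and 15.9% in the paired fit. At 14 h 3 were higher and 2 lower, smaller shares than the 26.2% and 26.3% of all genes, and 6 and 2 in the paired fit, where 31.8% and 31% of all genes were. Tob1, a repressor of SMAD-dependent transcription, rose by 0.55 (adjusted p = 2.4e-06), the ligase Wwp2 by 0.44 (adjusted p = 6.7e-04) and the phosphatase Ppm1a by 0.19 (adjusted p = 0.0237). The deubiquitinase Usp15, which is known to act on SMADs and ALK3 in favour of BMP signals and so is no brake, fell by 0.25 (adjusted p = 0.00244) and the ligase Nedd4l by 0.27 (adjusted p = 0.0287). The median of the 14 was 0.02 at 2 h and 0.10 at 14 h.

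**Figure D4:**
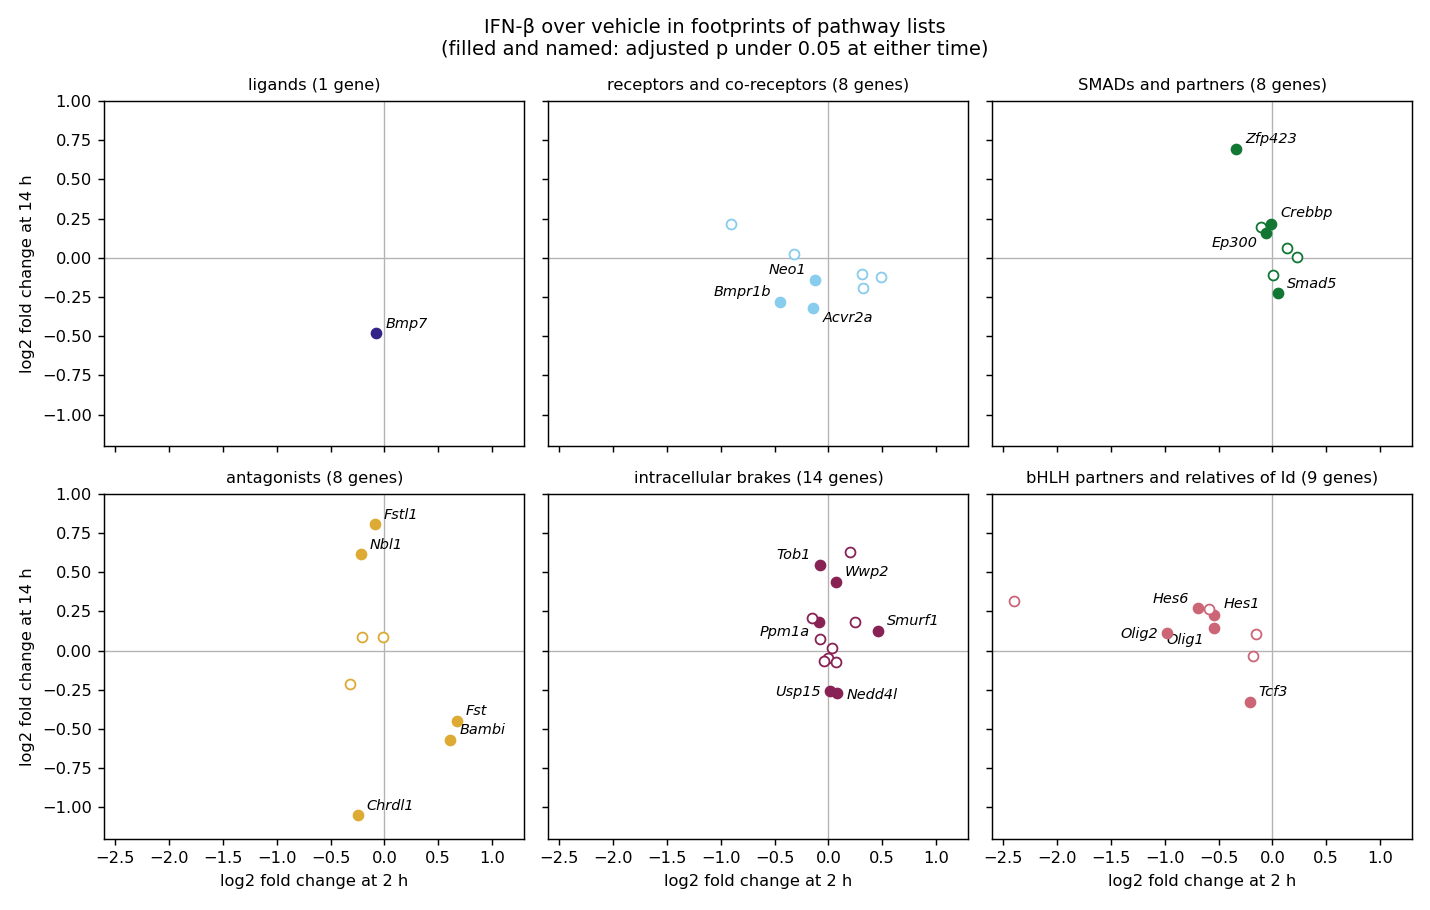
Log2 fold change in footprints at 2 h (x axes) and at 14 h (y axes) of genes of 6 lists that were tested at both times; each point is a gene, and filled, named points had an adjusted p under 0.05 at either time. Most bHLH partners and relatives of Id lie left of 0, and Bambi and Fst lie to the right of 0 at 2 h and below 0 at 14 h.

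Of 14 other BMP target genes, 7 were tested at 2 h, with 2 called higher and none lower, where 5.25% and 2.01% of all genes were. The paired fit called 4 higher and 1 lower, where 15.9% and 13.4% of all genes were. Prdm16, a zinc finger factor of NSC maintenance, had means of 1.03 and 2.56 CPM (log2 fold change 1.34, adjusted p = 0.0208), and Junb, an AP-1 subunit that also answers many other signals, 14.5 and 25.4 CPM (0.81, adjusted p = 0.0317). At 14 h 6 were tested and Junb (0.30, adjusted p = 0.0325) and Hey1, a Notch and BMP target (0.43, adjusted p = 0.00396), were higher. Mfge8, a secreted glycoprotein of NSCs, was lower (-0.15, adjusted p = 0.0264). Over all genes at 14 h 26.2% were called higher and 26.3% lower. The paired fit at 2 h also called Gfap and Msx1 higher and Mfge8 lower. The direct target Id1 changed in the direction opposite to Junb at both times. Mfge8 changed in the direction of Id1 at 14 h and, in the paired fit, at 2 h.

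The TGF-β and activin branch shares SMAD4 and SMAD7 with the BMP branch. Of 14 genes tested at 2 h, 1 was called (4 higher and 3 lower in the paired fit), the corepressor Tgif1, which rose from 9.04 to 24.3 CPM (log2 fold change 1.43, adjusted p = 0.00101) and had 8.85 and 9.02 CPM at 14 h. Of all genes at 2 h 5.25% were called higher, and 15.9% higher and 13.4% lower in the paired fit. At 14 h 4 of 13 were higher and 2 lower, where 26.2% and 26.3% of all genes were. The paired fit called 6 higher and 2 lower, where 31.8% and 31% of all genes were. Among the genes called in the unpaired fit, the type II receptor Tgfbr2 rose from 44.5 to 94.1 CPM (1.07, adjusted p = 1.2e-06), and the type I receptor Tgfbr1 was lower (-0.40, adjusted p = 0.00175).

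Total RNA of the same lysates held few reads of these genes. Its TMM factors were 0.434 in vehicle replicate 5 of 2 h and 0.499 in vehicle replicate 3 of 14 h. In the other total RNA libraries they were 0.969 to 1.33. Over 16 libraries Id1 had 22 total RNA counts and 2203 footprint counts, Id2 12 and 4915, Id3 157 and 21095, Smad1 143 and 9208, Bmpr1a 659 and 12375, and Bmpr2 1201 and 29029. Smad6 and Smad7 were ordered the other way, with 41 and 101 total RNA counts against 6 and 63 footprint counts. No member was called in total RNA, of 4 tested at 2 h, where 0.799% of all genes were called, and of 2 tested at 14 h, where 6.3% were. At an unadjusted p under 0.05, 1 member passed at 2 h and none at 14 h.

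That member was Smad1, with 1.08, 2.94, 1.76 and 1.25 CPM in total RNA with vehicle at 2 h and 3.26, 4.46, 2.34 and 3.74 CPM with IFN-β. The groups overlapped through vehicle replicate 3 alone. The log2 fold change was 0.98 (95% interval 0.14 to 1.83, adjusted p = 0.550). Bmpr1a had 9.46, 8.97, 9.09 and 7.95 CPM with vehicle and 9.07, 17.9, 10.5 and 11.7 CPM with IFN-β (log2 fold change 0.50, 95% interval -0.06 to 1.07, adjusted p = 0.800). With total counts in place of TMM, the value of Bmpr1a in vehicle replicate 5 was 3.94 CPM.

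Translation efficiency (TE), footprints relative to total RNA, was tested as an interaction between library kind and treatment, called at an adjusted p under 0.1. At 2 h none of 7 members tested was called, nor did any pass an unadjusted p of 0.05, where 0.815% of all genes were called. Of the 7, Id1, Id2 and Id4 had too few counts for the test of total RNA and entered through their footprints. Id1 had 8 total RNA counts with vehicle at 2 h and 4 with IFN-β, Id2 3 and 7, and Id4 12 and 10. Such counts cannot show whether the TE of Id1, Id2 or Id4 changed. The TE change of Smad1 at 2 h was 0.14 on the log2 scale (95% interval -0.81 to 1.08), and that of Bmpr1a 0.13 (95% interval -0.49 to 0.75), intervals that allow changes in either direction. At 14 h Id3 was called higher of 6 tested (1.62, 95% interval 0.52 to 2.71, adjusted p = 0.0743), where 4.49% of all genes were called higher, and in the paired fit (adjusted p = 0.0105), where 4.98% were. Of the 6, Bmpr1a and Bmpr2 alone had enough counts for the test of total RNA, and the others entered through their footprints. Id2 had 2 total RNA counts at 14 h with vehicle and 0 with IFN-β. The total RNA of Id3 at 14 h rested on 6, 7, 5 and 10 counts with vehicle and 1, 2, 6 and 2 with IFN-β, too few for that test. Leaving out vehicle replicate 2, 3 or 4 or IFN-β replicate 1, 2 or 4 ended this call (adjusted p = 0.110 to 0.206).

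For each Id gene the most similar footprint profiles were sought among 11737 genes by Pearson's r of log2(CPM + 0.5) over the 16 libraries, centred on the vehicle mean of each time. Nearest to Id1 were the immediate early gene Egr4 (0.90), Tcf4 (0.89), whose E proteins bind ID proteins, and Pank1 (0.87). Nearest to Id2 were Kidins220 (0.93), Nqo1 (0.91) and Tspan14 (0.91), to Id3 Gm3550 (0.91), Gm2178 (0.90) and Eaf1 (0.90), and to Id4 Fbln7 (0.84), Emc3 (0.82) and Tmco1 (0.81). The libraries share treatment, replicate and depth, and these values are a description.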

How the data were processed

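The authors trimmed reads with Trim Galore 0.4.4, mapped them to the mm10 (GRCm38) transcriptome with Bowtie 0.12.7 (versions as in the submitters' processing notes), removed duplicates and counted reads per gene. The deposited values are raw counts, in the CDS for footprints and over the gene body for total RNA. Removal of duplicates can lower counts of short, highly occupied CDSs such as that of Id3. Gene symbols and CDS lengths are from GENCODE M21, and no column was left out.

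A comparison took in the genes that reached 10 counts in 4 or more of its libraries, and the test was that of edgeR 4.0.16 in R 4.3.3 (TMM, quasi-likelihood, two-sided, Benjamini-Hochberg), for footprints and total RNA at each time, their interaction (TE), and time by treatment in footprints. The scripts were tested on simulated data. Alternatives were DESeq2 1.42.0, limma-voom (limma 3.58.1), total counts in place of TMM, other filters, 1 fit over 16 libraries, the replicate block, and each library left out. Deviations from group means of same-numbered footprint libraries correlated at 0.34 to 0.82 at 2 h and 0.20 to 0.43 at 14 h, so these numbers were taken to pair the libraries. In total RNA the correlations were -0.48 to 0.39 and -0.01 to 0.25. Floors are 3 counts. The methods call replicates biological. The p-values rest on the spread between them, with the dispersion of each gene moderated over all genes tested. The very small p-values of the paired fit therefore draw on the spread of other genes too.

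The members and lists were chosen with earlier results of these data known. All 10 members are named, in each list up to 4 called genes of lowest p at 14 h, and for each Id gene the 3 most correlated genes. Olig1, Olig2, Fst, Smurf1, Nedd4l, Prdm16, Tgif1, Tgfbr1, Smad4, Bmp2, Nog, Gfap, Msx1, Acvr1, Rgma, Lrp2, Hdac1, Tob2 and the cell type markers were named after their values had been seen. Lists were written from general knowledge. A gene of the bHLH list is not reported here and stands outside its counts. Markers of neurons and neuroblasts summed to 52.0 to 123 CPM, endothelial ones to 12.2 to 41.7 CPM and those of pericytes or fibroblasts to 0.248 to 3.07 CPM. Figures were drawn with matplotlib 3.10.9.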

Additional observations from a re-analysis of the deposited data

Results flagged for a closer look

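In the vehicle group at 2 h, replicate 3 had 76.1 CPM of Id2 footprints against 37.3 to 43.0 CPM in the other 3 libraries, a gap that took 0.855 of the range of the group. With IFN-β at 2 h, replicate 3 had 218 CPM of Smad1 footprints against 130 to 141 CPM in the others, a gap of 0.873 of the range. A gap this wide is expected by chance in about 1 of 20 groups, and 25 groups of 4 libraries were examined. Without both libraries of this replicate the Smad1 response at 2 h was 1.06 on the log2 scale.

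The response to IFN-β differed between the exposures for Smad1 (14 h minus 2 h, -1.06 on the log2 scale) and for Bmpr1a (-0.50), by the interaction of time and treatment. The labels do not say whether replicates 2 and 3 of the exposures share a culture.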

How the results depend on the processing

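Over the alternatives, 544 log2 fold changes of members kept direction and side of the threshold, 31 lost the call, 17 gained it and 27 turned sign, none of the last called in any setting.

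With the replicate block 5 members were called in footprints at 2 h (4 to 5 with a replicate also left out) and 3 at 14 h (2 to 4: 4 without replicate 1, 2 without any other). Over all genes the block called 3538 at 2 h against 878 (2966, 3168, 2717 and 2817 without replicate 2, 3, 5 and 6) and 6944 for 14 h minus 2 h against 3867. At 14 h 0 members were called by DESeq2, with a mean of at least 50 counts or in 1 fit over 16 libraries, and 2 with no filter. At 2 h all genes called were 1527 in 1 fit over 16 libraries and 1671 without both libraries of replicate 3.

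In TE at 14 h a mean of at least 50 counts gave calls for 0 members and 380 of 1194 genes tested, against 1136 without it. In TE at 2 h 259 genes were called by DESeq2's likelihood ratio test, 51 with total counts in place of TMM and 27 at a mean of 50 counts or more, against 115. In total RNA 269 genes were called at 14 h with total counts and 247 with the higher mean, against 474, and at 2 h 169 by DESeq2, 174 with no filter and 44 with the higher mean, against 93.

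With 1 library left out, members called ranged from 0 to 2 in footprints at 2 h, 0 to 1 at 14 h, 1 to 2 for 14 h minus 2 h and 0 to 1 in TE at 14 h, and were 0 in total RNA and in TE at 2 h. All genes called ranged from 517 to 953, 5613 to 6353 and 3229 to 4929 in footprints, 70 to 149 and 828 to 1111 in TE, and 30 to 74 and 171 to 450 in total RNA.

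With total counts the sign turned for Smad1 at 14 h (-0.0071, also -0.011 with no filter and -0.022 in the block without replicate 2), TE at 2 h of Bmpr1a (-0.18) and Smad1 (-0.20), and total RNA of Bmpr1a at 14 h (0.0033) and Id3 at 2 h (0.088), and in the block without replicate 3 for Bmpr2 at 2 h (-0.0016). Leaving out 1 library turned further signs, with these ranges: Id1 in TE at 14 h -0.98 to 0.14, Bmpr1a in TE at 14 h -0.0033 to 0.23, Id4 in TE at 2 h -1.49 to 0.18, Bmpr2 in TE at 2 h -0.27 to 0.19, Smad1 in TE at 2 h -0.10 to 0.24, Smad1 in footprints at 14 h -0.032 to 0.049, Id2 in 14 h minus 2 h -0.22 to 0.21, Id4 in 14 h minus 2 h -0.98 to 0.12, Bmpr2 in 14 h minus 2 h -0.020 to 0.11, Id2 in footprints at 2 h -0.37 to 0.066, Bmpr2 in footprints at 2 h -0.023 to 0.11, Bmpr1a in total RNA at 14 h -0.17 to 0.090, Id3 in total RNA at 2 h -0.28 to 0.040, Bmpr2 in total RNA at 2 h -0.063 to 0.30. The causes were not tested. Depth limits Bmp4, Smad6, Smad7 and Id4, and all members in total RNA.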
